A study of Mus musculus with 6 samples.

Results

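Transcripts of 35 genes of the unfolded protein response and the integrated stress response were followed across 3 groups of mouse bone marrow cells, with 2 arrays in each group. The genes were taken from a list of symbols, and each was read by the probe set that carries that symbol alone. Of several such probe sets for a gene, the brightest by its mean over 6 arrays was kept. All 35 were found among 19938 named genes on the array: 16 genes of protein folding and degradation in the endoplasmic reticulum, 3 sensors, 8 stress regulators with Atf4 among them, and 8 genes of amino acid and one-carbon metabolism or transport.

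Donor marrow came from wild-type C57BL/6 mice treated with 5-fluorouracil. It was transduced with a retrovirus and transplanted into C57BL/6 recipients; the labels give an age of 8 weeks for all samples. The virus carried GFP alone (the vector group), BCR-ABL with GFP (the BCR-ABL group) or BCR-ABL and Blk with GFP (the BCR-ABL-Blk group). The fusion kinase BCR-ABL drives chronic myeloid leukemia, and Blk is a kinase of the Src family. At 14 days after transplantation, GFP+ cells that carried c-Kit and Sca-1 but no lineage markers (LSK cells) were sorted, so all groups share the drug, the virus, the transplant and GFP. The promoter of the virus, the conditioning of recipients and the number of mice behind a replicate are not given in the labels.

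Values are log2 signals after quantile normalization between arrays, and a difference of 1 is a 2-fold change. The deposited medians ran from 7.01 to 7.52 over the arrays, so some list medians and some single genes were also read on the deposited values. Elsewhere directions and orders of arrays were read on the quantile normalized values only. For Calr, Hyou1, Manf, Edem1, Xbp1, Trib3, Chac1, Sesn2 and Phgdh the BCR-ABL and vector arrays, apart after quantile normalization, overlapped on the deposited values. There the median gene was shifted by −0.11 from vector to BCR-ABL, by 0.15 from vector to BCR-ABL-Blk and by 0.255 from BCR-ABL to BCR-ABL-Blk. Differences on that scale are given relative to these shifts unless stated otherwise. Levels are compared between groups for one probe set, never between genes. Among 6 markers of the sorted gate that were measured, the median level lay between 9.47 and 9.79 on the vector arrays and between 10.33 and 10.54 on the other 4 arrays. Markers of lineages that the gate should lack also gave signal. The median of 9 neutrophil granule genes was 10.84 and 11.87 on the vector arrays and 10.05 to 10.57 on the others, and that of 8 monocyte genes was 9.35 and 10.17 against 8.17 to 8.42. In RNA of a cell population, fewer cells of a type and less RNA per cell cannot be told apart.

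When proteins misfold in the endoplasmic reticulum, the membrane sensors IRE1 (encoded by Ern1), ATF6 and PERK start the unfolded protein response. IRE1 splices the messenger of Xbp1 and ATF6 is cleaved to a transcription factor, and both factors raise chaperone genes. PERK is one of several kinases that phosphorylate eIF2 alpha, which slows translation in general but favours translation of Atf4. ATF4 then raises genes of amino acid supply, redox defence and feedback, and this shared branch is called the integrated stress response. In blood stem and progenitor cells both branches are known as quality control. Splicing of Xbp1, cleavage of ATF6 and translation of Atf4 are not read by these arrays, which measure transcript levels.

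None of the 35 genes passed the test in any of the 3 comparisons (limma over all genes, Benjamini-Hochberg adjusted p under 0.05). Over all 19938 genes the share that passed was 0.145% between BCR-ABL and vector, 0.140% between BCR-ABL-Blk and vector and 0% between BCR-ABL-Blk and BCR-ABL. At an unadjusted p under 0.05, 3 members lay above vector and 2 below it in BCR-ABL cells, where all genes gave 5.67% and 2.96%. Between BCR-ABL-Blk and vector 1 member was higher and 5 lower, against 5.31% and 4.11%. Between BCR-ABL-Blk and BCR-ABL 0 were higher and 3 lower, against 1.47% and 2.49%. On the deposited values 0 members passed as well, where the share over all genes was 2.01%, 3.67% and 0.396% in the 3 comparisons. The arrays of the groups compared did not overlap for 16, 14 and 20 of the 35 members, against 37.0%, 37.2% and 34.0% of all genes. The differences were small. The widest in size were 0.55, 0.61 and 0.69 on the log2 scale, and the 95% interval lay between −1 and 1 for 35, 34 and 34 of the 35 genes in these comparisons. The 3 comparisons share arrays, so their values are given side by side and not as separate evidence.

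**Figure D1:**
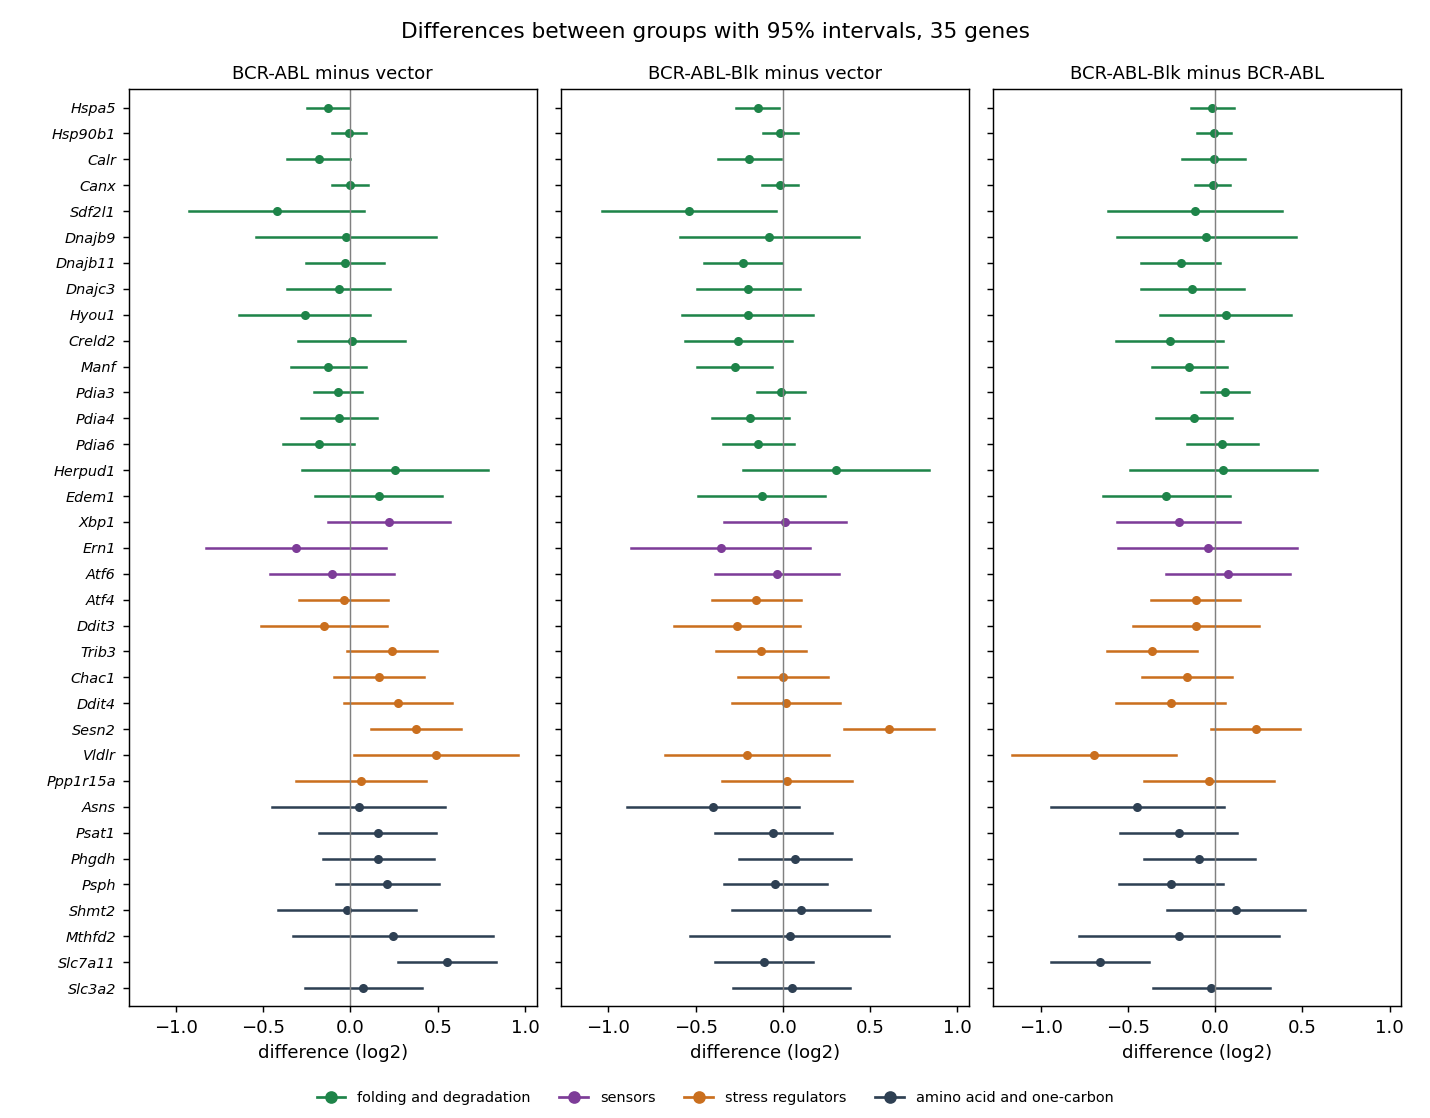
Differences between groups on the log2 scale (points) with 95% intervals from the fit over 6 arrays (lines) for the 35 genes, coloured by role, in 3 comparisons. Most intervals cross 0; Slc7a11 stands at 0.55 in BCR-ABL against vector and at −0.66 in BCR-ABL-Blk against BCR-ABL, and Sesn2 at 0.61 in BCR-ABL-Blk against vector.

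Some of the folding genes carry the best known promoter element of the pathway, the endoplasmic reticulum stress response element (ERSE). It is a CCAAT box set 9 bases from CCACG and read by NF-Y with ATF6 or XBP1. RefSeq promoters (build GRCm38.p6, 250 bases before to 50 after the gene start) matched 32 of the 35 genes; Hyou1, Manf and Atf6 had no entry. These letters (CCAAT, 9 bases of any kind, CCACG), searched on both strands, stood in 7 of the 14 matched folding and degradation genes, in 0 of the 2 matched sensors and in 0 of the 15 Atf4 targets. Of all 27025 genes with a promoter 0.137% held them. The shorter ERSE-II letters (ATTGG, any base, CCACG) stood in Herpud1 and, 8 bases into the transcript, in Dnajb11, against 0.0444% of all genes. A match is a run of letters and not a measured binding site. The matches are shown because they set the folding genes that hold them apart from the Atf4 targets in sequence before any level is compared. Each line runs 5′ to 3′ on the strand of the gene, with the matched letters in capitals.
Hspa5 (chr2:34771840-34772089, plus strand, the 250 bases before the start): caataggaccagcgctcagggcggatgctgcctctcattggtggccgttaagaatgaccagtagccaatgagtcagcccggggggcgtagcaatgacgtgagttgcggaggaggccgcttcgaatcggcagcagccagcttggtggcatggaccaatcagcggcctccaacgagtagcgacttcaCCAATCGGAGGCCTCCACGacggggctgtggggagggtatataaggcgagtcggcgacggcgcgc
Hsp90b1 (chr10:86705518-86705671, minus strand, 2 matches): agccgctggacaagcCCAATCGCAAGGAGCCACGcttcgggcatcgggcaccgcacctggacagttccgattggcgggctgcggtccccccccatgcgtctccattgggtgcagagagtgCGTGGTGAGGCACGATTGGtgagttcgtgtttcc
Calr (chr8:84847060-84847108, minus strand): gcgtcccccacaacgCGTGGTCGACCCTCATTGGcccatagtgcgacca
Canx (chr11:50325785-50325833, minus strand): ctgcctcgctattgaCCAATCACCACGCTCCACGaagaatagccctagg
Dnajc3 (chr14:118937812-118937860, plus strand): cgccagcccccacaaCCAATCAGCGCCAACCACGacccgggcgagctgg
Creld2 (chr15:88819505-88819553, plus strand): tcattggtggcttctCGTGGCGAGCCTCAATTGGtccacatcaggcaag
Pdia6 (chr12:17266476-17266524, plus strand): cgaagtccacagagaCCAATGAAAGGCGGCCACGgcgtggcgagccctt

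The chaperones themselves were nearly level between groups. Hspa5 encodes BiP, the central chaperone of the compartment and the brake on its sensors. It read 12.15 and 12.19 in vector, 12.04 and 12.05 in BCR-ABL and 12.06 and 11.99 in BCR-ABL-Blk cells. Both vector arrays lay above the other 4, by 0.13 on average over BCR-ABL (difference −0.13, 95% interval −0.25 to −0.01, adjusted p = 0.562) and by 0.14 over BCR-ABL-Blk (difference −0.14, interval −0.27 to −0.02, adjusted p = 0.427). Relative to the median gene on the deposited scale these differences were −0.03 and −0.16. Hsp90b1 (the chaperone GRP94) and Canx (calnexin, a lectin chaperone) differed by no more than 0.02 in size in any comparison, with intervals between −0.12 and 0.10. Relative to the median gene on the deposited scale they differed more, by 0.07 and 0.09 in BCR-ABL against vector, by −0.075 and −0.05 in BCR-ABL-Blk against vector and by −0.14 and −0.135 in BCR-ABL-Blk against BCR-ABL. Calr, calreticulin, the soluble partner of calnexin, read 12.12 and 12.35 in vector, 12.03 and 12.08 in BCR-ABL and 12.04 and 12.06 in BCR-ABL-Blk cells. The vector arrays were again the highest, vector replicate 2 most of all, with differences of −0.18 (adjusted p = 0.573) and −0.19 (adjusted p = 0.495).

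Sdf2l1, a partner of BiP in folding, showed the widest gap of this role. Its signal was 9.93 and 10.62 in vector, 9.84 and 9.87 in BCR-ABL, and 9.82 and 9.66 in BCR-ABL-Blk cells. The vector replicates differed by 0.68, more than the gap from vector replicate 1 to any of the other arrays. The group differences were −0.42 (SE 0.21, adjusted p = 0.645) against vector in BCR-ABL and −0.54 (SE 0.21, adjusted p = 0.487) in BCR-ABL-Blk cells. Without vector replicate 1 these were −0.76 (adjusted p = 0.0383) and −0.88 (adjusted p = 0.0204), and Calr then stood at −0.30 (adjusted p = 0.0481) and −0.30 (adjusted p = 0.0423); so the calls rest on vector replicate 2 alone, assumed to vary like the other groups. On that array 11 of the 16 folding and degradation genes lay above vector replicate 1 (median 0.11). All 9 neutrophil granule genes did so as well (median 0.61), while 10 of 11 genes of B and plasma cells lay lower there (median −1.16). The part of these markers in the folding genes was not tested.

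Manf, a secreted protein retained in the compartment under normal conditions, read 11.28 and 11.48 in vector, 11.27 and 11.23 in BCR-ABL and 11.15 and 11.06 in BCR-ABL-Blk cells. Its 3 groups did not overlap and BCR-ABL-Blk was the lowest, at −0.27 against vector (SE 0.09, adjusted p = 0.377). Dnajb11, a J-domain cochaperone of BiP, read 11.10 and 10.99, then 10.98 and 11.05, and then 10.89 and 10.74 in the same order of groups. Only the BCR-ABL-Blk pair stood apart, by −0.23 from vector (adjusted p = 0.509) and −0.20 from BCR-ABL (adjusted p = 0.999). Creld2, a disulfide isomerase-like protein whose promoter holds the ERSE letters, read 9.72 and 9.57, then 9.72 and 9.59, and then 9.42 and 9.37. BCR-ABL-Blk was again below both other groups, at −0.25 (adjusted p = 0.623) and −0.26 (adjusted p = 0.999). On the deposited values, with the shift of the median gene left in, the BCR-ABL-Blk arrays of Manf, Dnajb11 and Creld2 overlapped with both other groups. Relative to the median gene there, the differences from vector were −0.25, −0.215 and −0.225. Those from BCR-ABL were −0.235, −0.275 and −0.275.

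Pdia3, Pdia4 and Pdia6 are protein disulfide isomerases, which form and shuffle disulfide bonds, and the kept probe sets of these 3 genes differed by at most 0.19 in size between groups. Pdia4 read 10.92 and 11.08 in vector, 10.96 and 10.91 in BCR-ABL and 10.80 and 10.82 in BCR-ABL-Blk cells, with the last pair lowest (−0.19 against vector, adjusted p = 0.614). Pdia6 read 11.65 and 11.82, then 11.64 and 11.47, and then 11.58 and 11.61, so that vector was highest (−0.18 in BCR-ABL, adjusted p = 0.628). Pdia3 differed by −0.07, −0.01 and 0.06 in the comparisons of BCR-ABL with vector, BCR-ABL-Blk with vector and BCR-ABL-Blk with BCR-ABL. A second probe set of Pdia4, at a mean of 6.61, gave −0.38, −0.07 and 0.30 in the same order, where the kept one gave −0.06, −0.19 and −0.12, so the probe sets of this gene disagreed. Both probe sets of Dnajc3 held the same values.

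Of the remaining folding and degradation genes, Hyou1, a nucleotide exchange factor for BiP, was highest on vector replicate 2 (10.60) and between 10.09 and 10.18 on the other 5 arrays. Dnajc3, the cochaperone that also restrains eIF2 alpha kinases, lay between 11.59 and 11.75 on 5 arrays and at 11.34 on BCR-ABL-Blk replicate 2. Dnajb9, a cochaperone that represses IRE1, differed most between the BCR-ABL-Blk arrays (9.28 and 8.59). Herpud1, a membrane scaffold of degradation, was the one gene of this role above 0 in both comparisons with vector, at 0.26 (BCR-ABL) and 0.30 (BCR-ABL-Blk). Its vector arrays lay far apart, at 9.59 and 8.93. Edem1, a lectin that hands misfolded glycoproteins to degradation, was at 0.16 and −0.12.

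Over the 16 folding and degradation genes the median difference was −0.07 in BCR-ABL against vector, with 13 below 0, −0.17 in BCR-ABL-Blk against vector, with 15 below 0, and −0.03 in BCR-ABL-Blk against BCR-ABL, with 12 below 0. The median over all genes was 0.02, 0.00 and −0.01, with 45.6%, 48.8% and 54.3% below 0. In these comparisons both arrays of the former group lay below both of the latter for 6, 8 and 6 of the 16, and above for 1, 0 and 2. Over all genes both arrays lay lower for 14.9%, 17.5% and 20.0%, and higher for 22.1%, 19.7% and 14.0%. These pair counts changed on the deposited values, with the shift of the median gene left in. All pairs that were lower in BCR-ABL-Blk cells overlapped there, against vector and against BCR-ABL. Canx and Herpud1 lay above vector, and Hsp90b1, Calr, Canx, Hyou1, Pdia3, Pdia6 and Herpud1 above BCR-ABL. Shares over all genes were not counted on that scale. On the deposited scale, relative to the median gene, the list medians were 0.04, −0.16 and −0.14: the sign of BCR-ABL against vector changed with the scaling, and both medians of BCR-ABL-Blk cells kept theirs. Without vector replicate 2 the median of BCR-ABL-Blk against vector was −0.07. Neutrophil granule genes lay lower in BCR-ABL-Blk cells too: all 9 were below 0 against vector, with a median of −0.70, and their part in the folding genes was not tested. The 7 genes with ERSE letters ranged from −0.25 to −0.01 between BCR-ABL-Blk and vector, with a median of −0.14. The 21 measured genes of the whole array with those letters, these 7 included, had a median of −0.02, with 13 below 0.

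**Figure D2:**
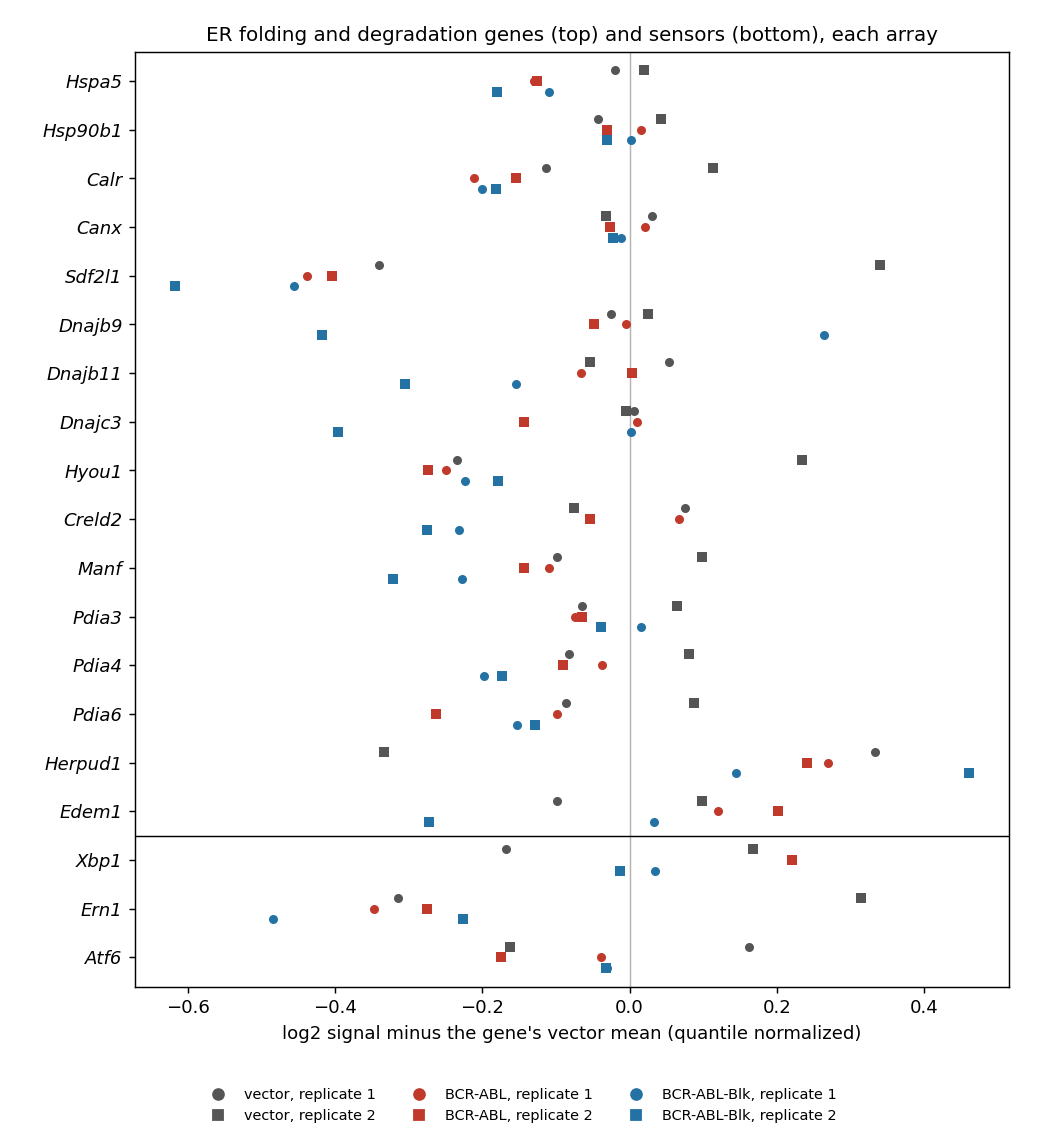
Signal of each array for the 16 folding and degradation genes and the 3 sensors, as log2 signal minus the mean of the 2 vector arrays, with colour for the group and shape for the replicate number. Vector replicate 2 stands to the right for Sdf2l1, Hyou1, Calr and Ern1, and the BCR-ABL-Blk arrays stand to the left for Dnajb11, Creld2 and Manf; equal values hide each other (Xbp1, BCR-ABL).

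For each of the 3 sensors the vector arrays lay further apart than the group means did. Xbp1 read 9.29 and 9.63 in vector, 9.68 and 9.68 in BCR-ABL and 9.50 and 9.45 in BCR-ABL-Blk cells. BCR-ABL was the highest pair, at 0.22 against vector (SE 0.15, adjusted p = 0.753), and BCR-ABL-Blk lay 0.21 below it (difference −0.21, adjusted p = 0.999). Ern1, which encodes IRE1, ranged from 8.65 to 9.28 in vector and from 8.48 to 8.74 in the other 4 arrays, with differences of −0.31, −0.36 and −0.04 in the 3 comparisons. Atf6 ranged from 9.41 to 9.74 over all arrays, with differences of −0.11, −0.03 and 0.07.

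Targets of ATF4 are read through another element, the C/EBP-ATF response element (CARE). The letters TGATGNAA, searched on both strands, stood in 5 of the 15 matched Atf4 targets of the list (Chac1, Vldlr, Asns, Slc7a11 and, 15 bases into the transcript, Trib3), in Herpud1 among the folding genes, and in 4.51% of all genes. No match of one motif overlapped a match of another in these genes. The promoters below were picked for CARE letters before the gene start, and so leave out Sesn2 and Trib3; Herpud1 holds both kinds of letters, and Nupr1 is a further target described later.
Slc7a11 (chr3:50443614-50443863, minus strand, the 250 bases before the start, 2 matches): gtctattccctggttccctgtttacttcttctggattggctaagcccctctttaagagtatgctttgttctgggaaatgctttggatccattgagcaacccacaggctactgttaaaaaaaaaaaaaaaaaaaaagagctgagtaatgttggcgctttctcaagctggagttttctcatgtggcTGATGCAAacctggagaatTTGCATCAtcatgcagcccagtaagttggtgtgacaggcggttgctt
Vldlr (chr19:27216805-27216842, plus strand): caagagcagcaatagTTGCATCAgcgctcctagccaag
Chac1 (chr2:119351034-119351071, plus strand): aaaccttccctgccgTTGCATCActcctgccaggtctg
Asns (chr6:7693210-7693247, minus strand): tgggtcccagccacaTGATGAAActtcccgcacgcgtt
Nupr1 (chr7:126625558-126625595, minus strand): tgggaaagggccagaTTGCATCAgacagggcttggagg
Herpud1 (chr8:94386302-94386402, plus strand, the CARE letters first and the ERSE-II letters second): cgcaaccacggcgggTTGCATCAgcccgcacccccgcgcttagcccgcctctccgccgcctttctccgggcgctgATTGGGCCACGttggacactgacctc

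Atf4 itself was level. It read 10.31 and 10.41 in vector, 10.38 and 10.27 in BCR-ABL and 10.19 and 10.23 in BCR-ABL-Blk cells, with differences of −0.04, −0.15 and −0.11 (adjusted p of 0.960, 0.757 and 0.999). The BCR-ABL-Blk pair was the lowest by a small margin. Relative to the median gene on the deposited scale the differences were 0.04, −0.12 and −0.16, the first with the opposite sign. Ddit3 encodes CHOP, the factor linked to death under lasting stress. It read 9.81 and 9.49 in vector, 9.54 and 9.45 in BCR-ABL and 9.46 and 9.32 in BCR-ABL-Blk cells. The highest value was that of vector replicate 1, and the differences were −0.15, −0.26 and −0.11 (adjusted p of 0.845, 0.680 and 0.999).

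Several targets of ATF4 had their highest pair in BCR-ABL cells. The clearest was Slc7a11, the light chain of the cystine-glutamate exchanger xCT, which supplies cysteine for glutathione. It read 6.33 and 6.30 in vector, 6.82 and 6.91 in BCR-ABL and 6.36 and 6.06 in BCR-ABL-Blk cells. The BCR-ABL pair stood above all 4 other arrays, and the vector and BCR-ABL-Blk arrays overlapped. BCR-ABL was 1.47-fold above vector (difference 0.55, 95% interval 0.27 to 0.83, adjusted p = 0.183), and BCR-ABL-Blk was 1.58-fold below BCR-ABL (difference −0.66, interval −0.94 to −0.38, adjusted p = 0.999). By unadjusted p it ranked 10 among the 19938 genes of the latter comparison, in which no gene passed. On the deposited scale, relative to the median gene, the differences were 0.51 and −0.62, and the BCR-ABL pair again did not overlap with either group. Slc7a11, Trib3 and Sesn2 are dim, with means under 7.5, the median level of named genes. No detection call was used, so their folds are those of the signal as measured. Slc3a2, the heavy chain that Slc7a11 shares with other transporters, lay between 10.77 and 10.82 on the 4 BCR-ABL and BCR-ABL-Blk arrays, inside the vector range of 10.52 to 10.96.

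Vldlr, a lipoprotein receptor raised by ATF4 under stress, read 8.90 and 8.38 in vector, 9.26 and 8.995 in BCR-ABL and 8.49 and 8.38 in BCR-ABL-Blk cells. The BCR-ABL pair was the highest, by 0.49 over vector (SE 0.20, adjusted p = 0.562), and BCR-ABL-Blk lay at −0.69 against it (95% interval −1.16 to −0.22, adjusted p = 0.999). Trib3, a pseudokinase that feeds back on ATF4, read 6.81 and 6.99, then 7.09 and 7.19, and then 6.80 and 6.75. It had the same order, at 0.24 against vector (adjusted p = 0.604) and −0.36 in BCR-ABL-Blk against BCR-ABL (interval −0.62 to −0.11, adjusted p = 0.999). Ddit4, which restrains mTORC1, read 7.74 and 7.51, then 7.85 and 7.94, and then 7.69 and 7.59, with differences of 0.27, 0.02 and −0.26. Chac1, which degrades glutathione, differed by 0.16, 0.00 and −0.16, and its BCR-ABL pair (7.63 and 7.68) lay above the other 4 arrays.

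Sesn2, a stress-induced inhibitor of mTORC1, did not follow that order. It read 7.06 and 6.92 in vector, 7.39 and 7.34 in BCR-ABL and 7.61 and 7.58 in BCR-ABL-Blk cells, so the 3 groups did not overlap and BCR-ABL-Blk was the highest. The difference from vector was 0.38 in BCR-ABL (95% interval 0.12 to 0.63, adjusted p = 0.342) and 0.61 in BCR-ABL-Blk cells (1.52-fold, interval 0.35 to 0.86, adjusted p = 0.102), the smallest adjusted p of any member. Between the BCR-ABL groups it was 0.23 (adjusted p = 0.999). Relative to the median gene on the deposited scale these values were 0.34, 0.61 and 0.28. On the deposited values themselves the BCR-ABL arrays (7.33 and 7.10) overlapped with vector (6.86 and 7.11), and the BCR-ABL-Blk arrays stayed highest. Without vector replicate 1 the difference between BCR-ABL-Blk and vector was 0.68 (adjusted p = 0.0478). Ppp1r15a, the phosphatase subunit GADD34 that ends the response, lay between 8.00 and 8.33 on all arrays, with differences of 0.06, 0.03 and −0.03.

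Asns, asparagine synthetase, read 10.74 and 10.16 in vector, 10.66 and 10.33 in BCR-ABL and 9.92 and 10.17 in BCR-ABL-Blk cells. Vector and BCR-ABL overlapped (difference 0.05), and BCR-ABL-Blk lay below BCR-ABL (difference −0.45, 95% interval −0.94 to 0.05, adjusted p = 0.999). The serine pathway runs from Phgdh through Psat1 to Psph. Psph, its last enzyme, read 9.24 and 9.26, then 9.50 and 9.43, and then 9.23 and 9.19, with BCR-ABL highest (0.21, −0.04 and −0.25 in the 3 comparisons). Psat1 gave 0.16, −0.05 and −0.21, and Phgdh 0.16, 0.07 and −0.09. Of the mitochondrial one-carbon enzymes, Mthfd2 differed between the vector arrays by 0.70 (10.16 and 9.46), the widest replicate gap of the 35 genes there, and gave 0.25, 0.04 and −0.21. Shmt2 differed between the BCR-ABL arrays by 0.54 (10.74 and 11.28) and gave −0.02, 0.10 and 0.12.

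**Figure D3:**
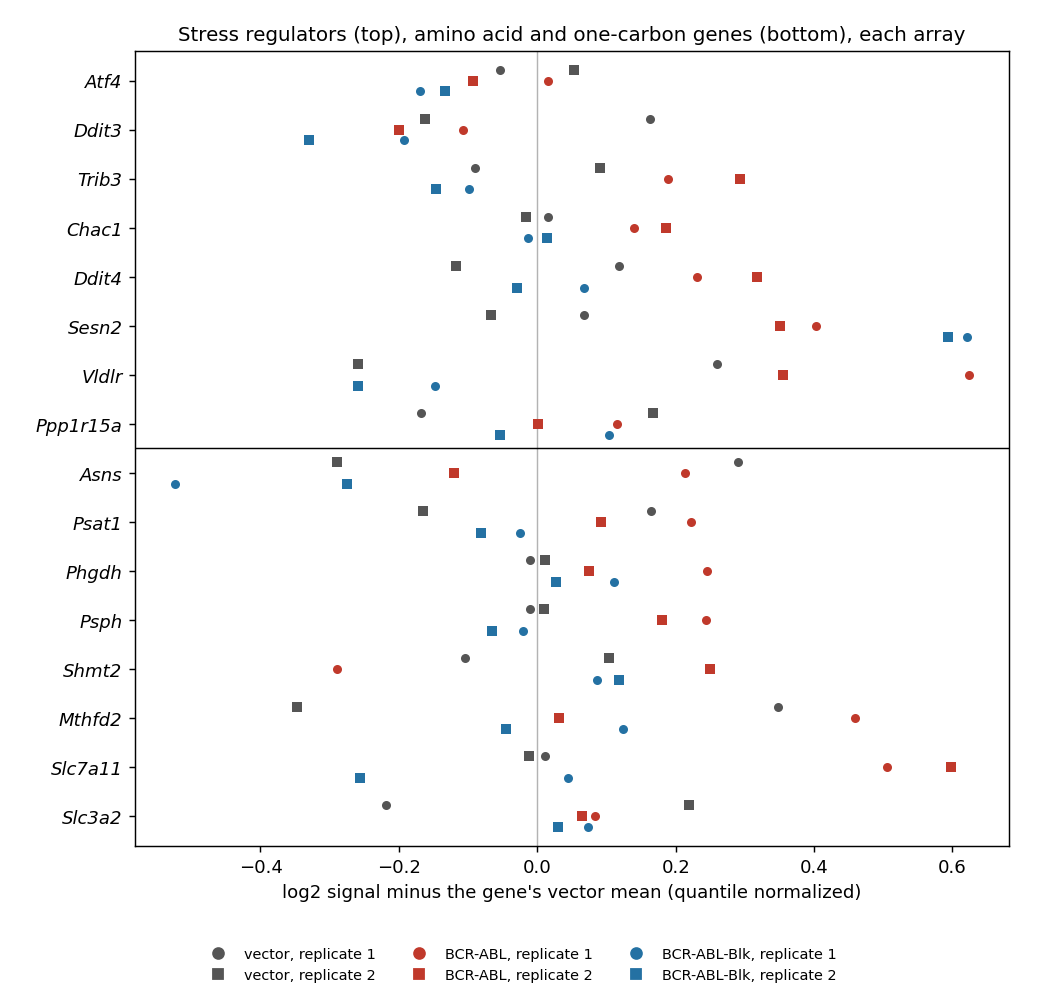
Signal of each array for the 8 stress regulators and the 8 amino acid and one-carbon genes, as log2 signal minus the mean of the 2 vector arrays, with colour for the group and shape for the replicate number. The BCR-ABL arrays stand to the right of all others for Slc7a11, Vldlr, Trib3, Chac1, Ddit4 and Psph, and for Sesn2 the BCR-ABL-Blk arrays lie furthest right.

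Over the 15 Atf4 targets, without Atf4 itself, the median difference was 0.16 in BCR-ABL against vector, with 13 above 0, against 54.3% of all genes. It was 0.00 in BCR-ABL-Blk against vector, with 7 above and 7 below 0 (51.2% of all genes above), and −0.21 in BCR-ABL-Blk against BCR-ABL, with 13 below 0, against 54.3% of all genes. Both BCR-ABL arrays lay above both vector arrays for 8 of 15 and below for 0, against 22.1% and 14.9% of all genes. For BCR-ABL-Blk against vector the pair was above for 2 and below for 3, against 19.7% and 17.5%. Both BCR-ABL-Blk arrays lay below both BCR-ABL arrays for 8 of 15 and above for 1, Sesn2, against 20.0% and 14.0%. These pair counts changed on the deposited values, with the shift of the median gene left in. Only Ddit4, Vldlr, Psph and Slc7a11 stayed above vector in BCR-ABL cells, and Ddit3 lay below. Against BCR-ABL, only Vldlr, Asns and Slc7a11 stayed lower in BCR-ABL-Blk cells, and Slc3a2 joined Sesn2 above. Sesn2 and Shmt2 lay above vector in BCR-ABL-Blk cells, and the rest overlapped. On the deposited scale the medians relative to the median gene were 0.21, 0.01 and −0.23. So the folding genes and the Atf4 targets had medians on opposite sides of 0 in BCR-ABL against vector (−0.07 and 0.16), though not on the deposited scale (0.04 and 0.21). The gap between these lists was not tested, since the members were listed with results known.

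Markers of other cells moved between the same groups. Of 8 markers of mast cells, eosinophils and basophils, 6 lay above 0 in BCR-ABL against vector (median 0.85), and 7 lay below 0 in BCR-ABL-Blk against BCR-ABL (median −0.37). Their median level was 7.54 and 7.49 in vector, 9.81 and 9.61 in BCR-ABL and 10.14 and 8.71 in BCR-ABL-Blk cells. Against vector, monocyte genes (8 of 8; medians −0.97 and −1.11), dendritic cell genes (6 of 6; −1.18 and −0.83) and erythroid genes (5 of 5; −0.51 and −1.05) lay below 0 in BCR-ABL and BCR-ABL-Blk cells alike. Genes of B and plasma cells had medians of −1.26 and −0.98 there, with 8 and 9 of 11 below 0. Megakaryocyte genes lay above 0 in both (5 of 5; medians 0.41 and 0.48), as did 5 of 6 markers of the sorted gate (0.64 and 0.75). Between BCR-ABL-Blk and BCR-ABL, neutrophil granule genes (9 of 9; median −0.40) and erythroid genes (4 of 5; −0.44) lay below 0. The part of these cells in the values of the Atf4 targets and of the folding genes was not tested.

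The rest of the pathway was read from further lists. Of 40 other genes of the unfolded protein response 38 were measured, and 0 passed in any comparison after quantile normalization (limma); at an unadjusted p under 0.05 there were 0, 2 and 1, against 8.64%, 9.42% and 3.96% of all genes. On the deposited values 1 passed, Ero1a in BCR-ABL-Blk against BCR-ABL, where 0.396% of all genes did. Its difference was −0.515 with the shift of the median gene left in (limma adjusted p = 0.0408). The medians of the 38 genes were 0.00, −0.08 and −0.06 in BCR-ABL against vector, BCR-ABL-Blk against vector and BCR-ABL-Blk against BCR-ABL. In the last, 32 of 38 lay below 0. The 4 nearest the threshold in BCR-ABL cells were Spcs2, a signal peptidase subunit (0.12), the lectin Erlec1 (0.33), the disulfide isomerase Txndc5 (0.29) and Mbtps1, the protease that cleaves ATF6 (0.27). In BCR-ABL-Blk cells against vector they were P4hb, the founding protein disulfide isomerase (−0.56, adjusted p = 0.389), the translocon subunit Sec61b (−0.22), Serp1 (−0.29) and Selenos (−0.34). Against BCR-ABL they were Ddost, of the oligosaccharyl transferase (−0.23), the oxidase Ero1a (−0.69), Derl2 (−0.26) and P4hb (−0.35), each at an adjusted p of 0.999.

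Of 44 other genes of the integrated stress response 41 were measured, and 0 passed in any comparison after quantile normalization (limma); at an unadjusted p under 0.05 there were 8, 2 and 6, against 8.64%, 9.42% and 3.96% of all genes. On the deposited values Nupr1 passed in BCR-ABL against vector (difference 0.72, limma adjusted p = 0.0485), where 2.01% of all genes did. It also passed in BCR-ABL-Blk against vector (0.91, limma adjusted p = 0.00207), as did Lars (0.375, adjusted p = 0.0342), against 3.67% of all genes. These differences have the shift of the median gene left in. Relative to the median gene, Nupr1 stood at 0.83 and 0.76. The 8 at an unadjusted p under 0.05 in BCR-ABL against vector were all higher, as were 5.67% of all genes at that p. They were Nupr1, a stress cofactor (0.83, SE 0.19, adjusted p = 0.207), the aminotransferase Gpt2 (0.55, SE 0.12, adjusted p = 0.194), Slc6a9, a glycine transporter (0.44), the aminoacyl-tRNA synthetases Lars (0.36) and Tars (0.34), the secreted Stc2 (0.53), Slc7a3, a transporter of basic amino acids (0.33), and Cth, which makes cysteine (0.26). In vector Gpt2 (6.46), Slc7a3 (6.66), Cth (6.19), Slc6a9 (7.02) and Stc2 (7.09) were dim, under 7.5, the median level of named genes. On the deposited values the BCR-ABL and vector arrays of Slc6a9, Slc7a3 and Cth overlapped. In all 35 of 41 lay above 0 in BCR-ABL against vector, with a median of 0.14, and 0.19 relative to the median gene on the deposited scale. In BCR-ABL-Blk against vector the median was 0.06, with Nupr1 at 0.76 (adjusted p = 0.232), the autophagy receptor Sqstm1 at 0.46, Lars at 0.23 and Gars at −0.17. Against BCR-ABL the median was −0.08, or −0.12 on the deposited scale relative to the median gene. There the 6 at an unadjusted p under 0.05 were all lower, as were 2.49% of all genes: Gars (−0.28), Cebpb, a partner of ATF4 (−0.41), Gpt2 (−0.33), Slc6a9 (−0.29), Slc7a3 (−0.26) and Cth (−0.23). The CARE letters stood in 12 of the 32 listed genes with a promoter, against 4.51% of all genes; Nupr1, Gars and Tars are among them, and so are Aars and Pycr1, which were not measured. Over the 565 measured genes of the whole array with CARE letters the median difference was 0.005, −0.01 and −0.01 in the 3 comparisons.

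**Figure D4:**
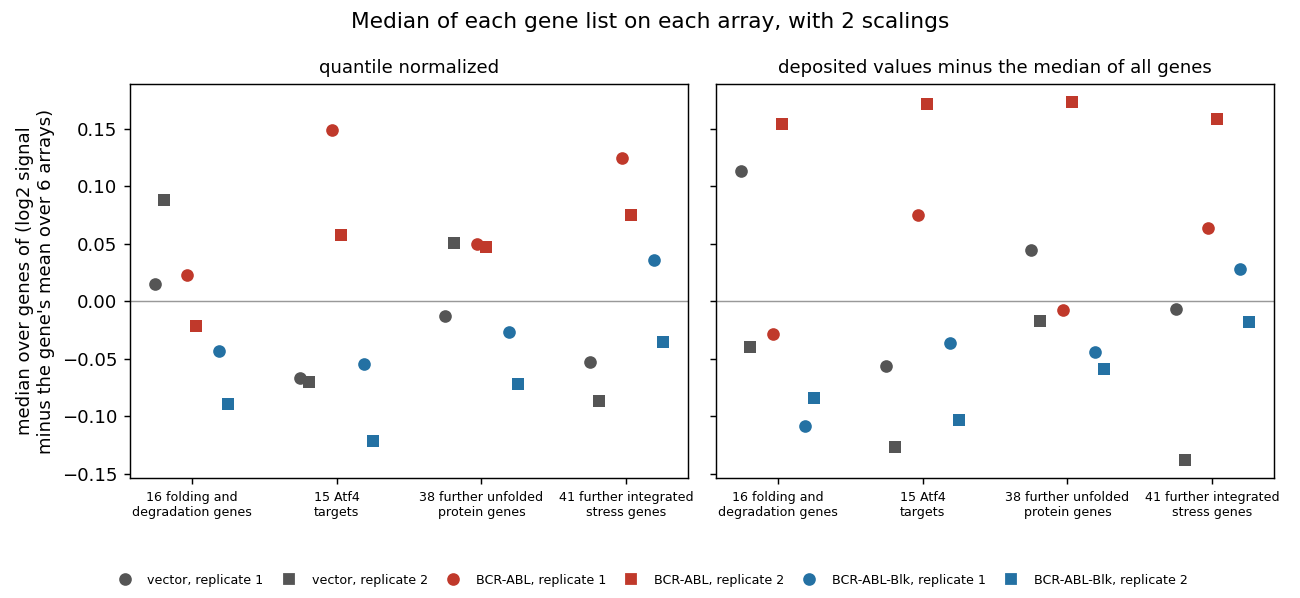
Median over the genes of a list of the log2 signal minus each gene's mean over the 6 arrays, for 4 lists and each array, quantile normalized (left) and as deposited after the same median over all genes was taken off (right). With both scalings the BCR-ABL arrays are the highest for the 15 Atf4 targets and the 41 further integrated stress genes, and the BCR-ABL-Blk arrays the lowest for the 16 folding and degradation genes.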

How the data were processed

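Total RNA was labelled for Affymetrix whole-transcript arrays, 1 per sample. The deposited values are log2 signals of 35557 probe sets, made by the authors with Affymetrix Expression Console 1.1 and RMA, per the submitters' processing notes; the sources used here give neither its options nor a genome build. Symbols came from the platform annotation, which can be old: 21789 probe sets had 1 symbol, 1621 several and 12147 none. No filter on level was used. Arrays were quantile normalized and fitted with limma 3.58.1 in R 4.3.3 (lmFit, eBayes with an intensity trend; all 6 arrays, no block), with 3 residual and 4.40 prior degrees of freedom. P-values are two-sided and adjusted over 19938 genes. The fit was tested on simulated data. That check set no minimum for the recovery of changes as small as those of the members, and no result here rests on it. The members, roles and lists were chosen with earlier results of these data known. Values of every array are given for Hspa5, Xbp1, Atf4, Ddit3, Trib3, Asns and the 8 members with the smallest unadjusted p of each comparison; from the further lists the 4 with the smallest p are named, and others where a count called for it. Promoters are RefSeq's. Alternatives were other scalings, fits, probe sets, a filter at the median level, a replicate block and leaving out each array; the number of arrays limits the precision.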

Additional observations from a re-analysis of the deposited data

How the results depend on the processing

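No member passed under any alternative that kept all 6 arrays, a replicate block included: with the replicate number as a block the smallest adjusted p was 0.212, 0.134 and 0.999 in BCR-ABL against vector, BCR-ABL-Blk against vector and BCR-ABL-Blk against BCR-ABL. Over all genes, same-numbered arrays did not deviate together after quantile normalization (correlations of −0.06, 0.08 and 0.03). With a single pair of arrays per group this cannot tell whether same-numbered arrays shared a batch. Leaving out 1 array gave 0 to 2, 0 to 3 and no members, all of them without vector replicate 1. The count of all genes, 29, 28 and 0, was 401, 732 and 79 without normalization between arrays, 55 and 71 with centred arrays, 15 and 4 without a trend, 69 and 58 with robust moderation, and 53 and 71 above the median level, in the order of comparisons. For BCR-ABL-Blk against vector it was 14 with array weights and 4 with only the 2 groups. Without 1 array the counts ran from 1 to 507, 4 to 560 and 0 to 2. Without normalization the median of the Atf4 targets was 0.095, 0.155 and 0.03, and that of the folding and degradation genes −0.0125 and 0.1175 in the comparisons of BCR-ABL-Blk cells. These medians have the shift of the median gene left in. Relative to the median gene they were 0.205, 0.005 and −0.225 for the targets, and −0.1625 and −0.1375 for the folding genes. With centred arrays the folding median was 0.035 in BCR-ABL against vector and −0.1525 in BCR-ABL-Blk against BCR-ABL. Without 1 array the Atf4 target medians ran from 0.1625 to 0.2217, −0.05417 to 0.045 and −0.2383 to −0.1475, and the folding medians from −0.1854 to −0.06521 and from −0.08083 to −0.01375 in the comparisons of BCR-ABL-Blk cells. The cause was not tested. Of the members' single differences under the alternatives, 5 newly passed, 67 that never passed changed sign and moved by more than their standard error, and 1494 did neither. The number of arrays limits the precision.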
